A study of Mus musculus with 16 samples.

Results

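The 10 genes described here encode enzymes that build purine and pyrimidine nucleotides from small precursors. They were taken by name, and the rule that lists them uses no measured value, although the list was drawn up with earlier results of these data known. Of the 10, 6 belong to purine synthesis (Ppat, Gart, Paics, Adsl, Atic and Impdh2) and 4 to pyrimidine synthesis (Cad, Dhodh, Umps and Ctps). All 10 were found among the 55414 gene IDs of the count table, and all 10 were among the 18946 genes with enough counts to be tested. RNA was sequenced from 16 tumours of B6MyC-CaP cells, a mouse prostate cancer line that comes from the Hi-MYC model on a C57BL/6 background and was grown under the skin of male C57BL/6 mice aged 6 weeks at implantation. In Hi-MYC mice a human MYC transgene is driven in the prostate by a probasin-based promoter, and every tumour of the study, controls included, carries this origin. There were 4 tumours in each of 4 groups. ADF+ENZ mice received 20 mg/kg enzalutamide, an anti-androgen drug, once a day by mouth and were fasted for 24 h in alternation with 24 h of free feeding. ENZ mice received the same drug with free feeding, ADF (alternate-day fasting) mice had the same fasting cycle without the drug, and Vehicle mice had free feeding on normal chow and the label vehicle in place of the drug. Treatment began after tumours had formed, and all tumours come from 1 cell line. The study asked how fasting and enzalutamide change the transcripts of these tumours. The labels number the tumours without saying whether any shared a mouse, so p-values reflect variation among these samples alone. The sources used here do not say whether a tumour was collected on a fasting day or on a feeding day.

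Purine synthesis assembles the ring on phosphoribosyl pyrophosphate (PRPP), an activated ribose, and ends at inosine monophosphate (IMP), from which adenine and guanine nucleotides branch. Pyrimidine synthesis makes the ring before ribose is attached and ends at uridine monophosphate (UMP), from which the other pyrimidines derive. Dividing cells depend on both routes for RNA and DNA, and MYC proteins are known to bind the regulatory DNA of several of these genes at E-boxes, most often the letters CACGTG. The sequences that follow are shown because the stretches searched held this motif in some members and not in others.

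In RefSeq promoter sequences of mouse build GRCm38.p6, which run from 250 bases before to 50 bases after a gene's start, 9 of the 10 genes had an entry, Dhodh being the one without. CACGTG, which reads the same on both strands, was found in 3 of these 9 (Paics, Atic and Impdh2) and in 8.09% of the 27025 genes of the promoter table. The 30 bases around each match on the plus strand follow, with the motif in capitals.
Paics: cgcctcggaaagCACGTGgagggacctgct
Atic: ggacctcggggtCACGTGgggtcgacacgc
Impdh2: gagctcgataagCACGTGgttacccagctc
The Paics stretch lies at chr5:76951087-76951116, with the motif 203 to 198 bases before the RefSeq start of Paics. In GENCODE M21, on the same build, this stretch is untranslated exon of Ppat, which runs the other way on the minus strand. The Atic stretch lies at chr1:71557137-71557166, with the motif 7 to 2 bases before the start, and 17 of its 30 bases are annotated as untranslated exon of Atic. The Impdh2 stretch lies at chr9:108560314-108560343, with the motif 110 to 105 bases before the RefSeq start and inside an untranslated exon that GENCODE places further upstream. The letters were not in the promoter windows of Ppat, Gart, Adsl, Cad, Umps and Ctps. Bases outside these windows were not searched. A match is a run of letters and not a measured binding site.

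Levels differed widely among the 10 enzymes and little among tumours. The unit is CPM, a count scaled to the size of its library, with TMM scaling between libraries, and levels are compared between genes per kilobase of annotated exon. Paics, which carries out a carboxylation and the next joining step of the purine ring, had the highest level, with a median of 67.6 CPM per kilobase over the 16 tumours (range 55.4 to 79.3). Impdh2, which turns IMP towards guanine nucleotides, followed at 26.0 (20.2 to 31.6), and these ranges did not overlap. Cad, which fuses the first enzymes of the pyrimidine route in one protein, had a median of 16.6 CPM per kilobase (11.7 to 23.9). Ctps, which makes CTP from UTP, had 14.1 (11.96 to 18.2), and Atic, which closes the purine ring to give IMP, had 12.9 (10.6 to 16.02). Adsl, a lyase used in the IMP route and again in the branch to AMP, had 10.1 (8.04 to 13.0). Gart, which catalyses several early purine steps, had 9.23 (8.04 to 10.4), Umps, which completes UMP, had 8.52 (6.75 to 10.9), and Ppat, the amidotransferase that commits PRPP to purines, had 8.499 (6.82 to 10.7). The ranges of Impdh2, Cad, Ctps, Atic, Adsl, Gart, Umps and Ppat overlapped each neighbour in this order. Dhodh, the mitochondrial enzyme that oxidises dihydroorotate, was lowest at 1.16 CPM per kilobase (0.834 to 1.48). The length used takes in every annotated exon of a gene, so the order between genes depends on the annotation. In CPM without length, Atic had a median of 103 and Ctps 46.6, the reverse of their order per kilobase. By either measure Ppat, the enzyme of the committed purine step, was among the low members (median 37.6 CPM). Paics beside it on chromosome 5 was the highest by either measure (212 CPM), and Dhodh the lowest (7.33 CPM).

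The ratio of the highest to the lowest tumour was between 1.30 for Gart and 2.03 for Cad. The within-group coefficient of variation had a median of 10.4% over the 10 genes, against 15.8% over all genes tested, and ran from 6.65% for Gart to 13.8% for Cad. Counts per library were between 64 (Dhodh) and 5993 (Paics), so Dhodh had the least depth behind its values.

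**Figure D1:**
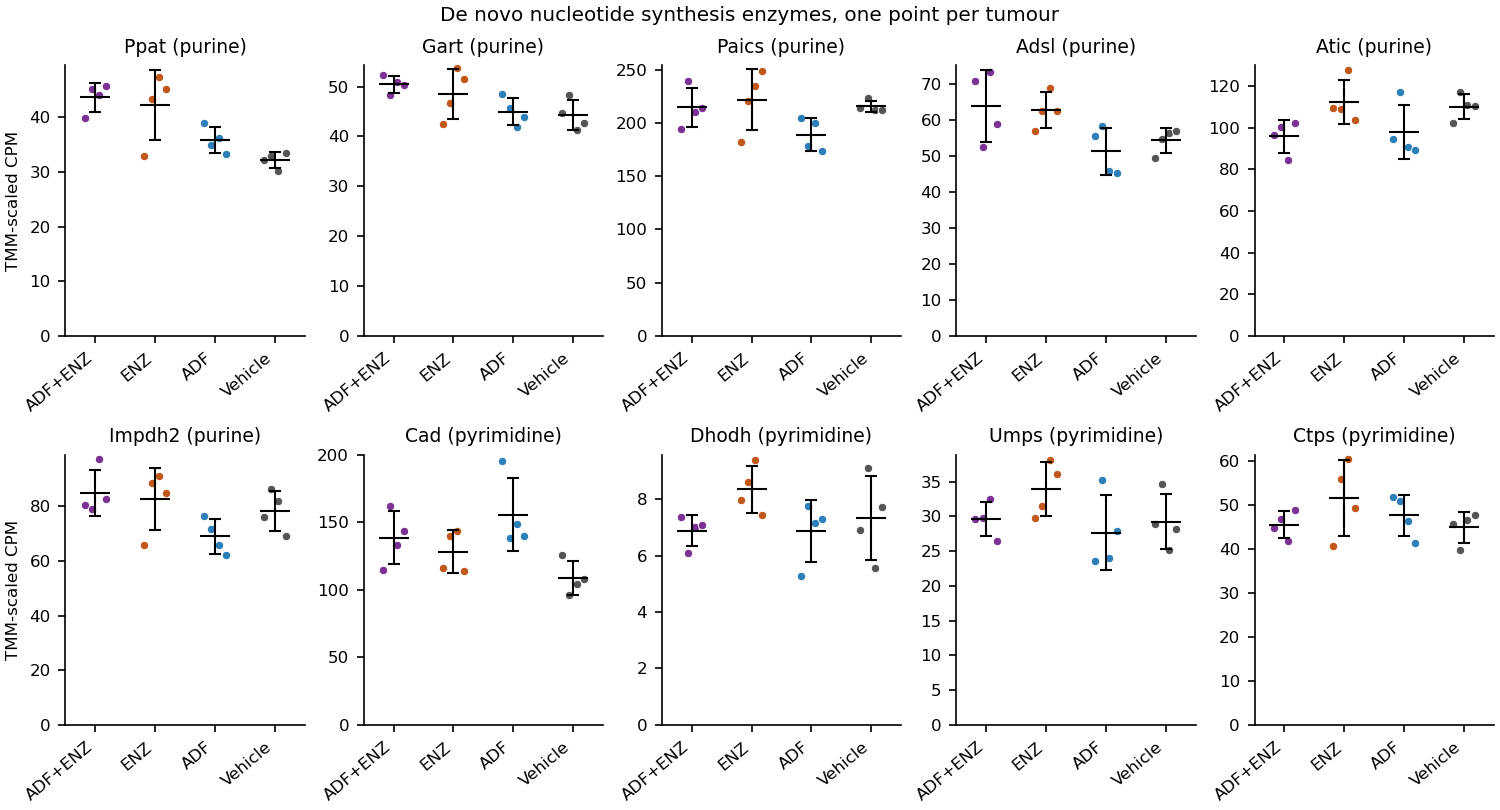
TMM-scaled CPM of the 10 genes (vertical axis, from 0) in each tumour (points) of the ADF+ENZ, ENZ, ADF and Vehicle groups; horizontal bars are means and error bars are SD over 4 tumours. The 4 ADF+ENZ values of Ppat, 39.9 to 45.8 CPM, lie above the 4 Vehicle values, 30.2 to 33.5 CPM, and the 4 ADF values of Cad, 139 to 195 CPM, lie above the 4 Vehicle values, 96.1 to 126 CPM.

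The ADF libraries held more reads that fell in no annotated feature. Such reads were 24.0% ± 2.05 of all reads in ADF+ENZ, 25.9% ± 1.45 in ENZ, 32.9% ± 2.73 in ADF and 25.9% ± 2.25 in Vehicle (SD, n = 4 each). Between ADF and Vehicle the exact two-sided permutation p was 0.0286, the smallest that 70 assignments allow, and 0.107 after Benjamini-Hochberg adjustment over 15 tests of library measures. ADF+ENZ and ADF differed in these reads at the same exact permutation p. Reads aligned to more than one place were 7.09% ± 0.591 in ADF+ENZ, 7.89% ± 0.0666 in ENZ, 4.695% ± 0.414 in ADF and 7.44% ± 0.294 in Vehicle (SD, n = 4 each), again with an exact permutation p of 0.0286 for ADF against Vehicle and for ADF+ENZ against ADF. Every ADF library (30.3% to 36.7% of reads in no feature) lay above every other library (21.2% to 27.9%). A fit with this percentage as a covariate therefore cannot tell it apart from ADF. The part of these library measures in the results of ADF was not tested. Counts in genes were between 10072489 and 25505655 per library. Of the labelled cell type's markers, Krt8 (206 to 661 CPM) and Foxa1 (32.4 to 70.4 CPM) were present, whereas Epcam stayed under 1 CPM and Krt5 and Krt14 were at or near 0. The summed level of 10 fibroblast markers was 11848 to 13718 CPM in ADF+ENZ, 9712 to 10799 in ENZ, 9206 to 12851 in ADF and 11249 to 13059 in Vehicle. In bulk tissue, fewer cells of a type and less RNA per cell cannot be told apart.

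Enzalutamide with free feeding was accompanied by a higher level of Ppat and by no other call among the 10 genes. Ppat had 32.9, 43.3, 47.4 and 45.3 CPM in the ENZ tumours, against 32.2, 32.9, 30.2 and 33.5 CPM in the Vehicle tumours. In ENZ, 3 tumours lay above all Vehicle tumours, and the ENZ tumour with 32.9 CPM lay among them. The log2 fold change was 0.39 (SE 0.0982), or 1.31-fold, with an adjusted p of 0.0236 in edgeR's quasi-likelihood test with Benjamini-Hochberg adjustment over all genes tested. In this comparison 1 of 10 members was called higher and 0 lower, where 5.43% of all genes tested were called, 1.81% higher and 3.62% lower. The call was lost, with adjusted p between 0.0519 and 0.100, when Vehicle replicate 1 or 3 or ENZ replicate 2, 3 or 4 was left out, and with an adjusted p of 0.0652 when only these 8 libraries were fitted.

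The log2 fold changes of all 10 genes were above 0 in ENZ against Vehicle, between 0.03 and 0.39. Their median was 0.19, against 0.01 over all genes tested. The 4 pyrimidine genes lay between 0.18 and 0.24, with 95% intervals that reach from -0.14 to 0.51. Ctps had 40.5, 55.8, 60.3 and 49.2 CPM in ENZ, against 45.6, 39.7, 46.6 and 47.6 CPM in Vehicle, and Umps had 29.8, 31.5, 38.1 and 36.1 CPM in ENZ, against 28.9, 34.6, 25.1 and 28.1 CPM in Vehicle. In both genes the ENZ values reached higher but overlapped those of Vehicle. Adsl had 56.9, 62.4, 68.9 and 62.5 CPM in ENZ, against 49.2, 54.8, 56.4 and 56.7 CPM in Vehicle. These Adsl values did not overlap, as was so for 1 of the 10 genes and for 12% of all genes tested, and the adjusted p was 0.293 in edgeR. The 20 proliferation markers, of which 1 was called higher and 0 lower in ENZ, had a median log2 fold change of 0.17 in the same comparison. Without Pcna, which ran from 137 to 3862 CPM over the tumours, the other 19 summed to 1538 to 2038 CPM in ENZ, against 1252 to 1950 CPM in Vehicle. Their part in the members' values was not tested.

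Fasting with no drug was accompanied by a higher level of Cad, the enzyme that starts pyrimidine synthesis. Cad had 195, 139, 149 and 140.1 CPM in the ADF tumours, against 126, 96.1, 104 and 108 CPM in the Vehicle tumours, and the groups did not overlap. The log2 fold change was 0.52 (SE 0.125, 95% interval 0.26 to 0.78), or 1.43-fold, with an adjusted p of 0.0170 in edgeR. Here 1 of 10 members was called higher and 0 lower, where 9.01% of all genes tested were called, 4.05% higher and 4.96% lower. Leaving out Vehicle replicate 2 (adjusted p 0.0590 in edgeR) or Vehicle replicate 3 (0.0534) ended the call. With the percentage of reads outside features as a covariate, the log2 fold change was 0.56 and the adjusted p was 0.371 in edgeR, and the number of genes called among all tested was 6 in that fit.

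The other 9 genes were not called in ADF against Vehicle, with log2 fold changes between -0.19 and 0.15. The enzymes after Cad in the same route did not share its position. Umps had 23.5, 35.2, 24.0 and 28.0 CPM in ADF, against 28.9, 34.6, 25.1 and 28.1 CPM in Vehicle, and Dhodh had 5.28, 7.76, 7.16 and 7.31 CPM in ADF, against 6.89, 9.09, 5.56 and 7.73 CPM in Vehicle. Both pairs of groups overlapped widely. Paics had 174 to 205 CPM in ADF, against 212 to 224 CPM in Vehicle, with no overlap but an adjusted p of 0.202 in edgeR. Groups that did not overlap were found for 2 of the 10 genes (Cad and Paics) and for 16.5% of all genes tested. The median of the 10 log2 fold changes was -0.08, against 0.01 over all genes tested. Of the 20 proliferation markers, 0 were called in either direction in ADF, and their median log2 fold change was -0.08.

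Over both drug states, the average fasting effect on Cad was a log2 fold change of 0.31 (SE 0.0884), with an adjusted p of 0.0454 in edgeR, and Cad was the only member called, where 5.06% of all genes tested were, 2.36% higher and 2.7% lower. This call was lost when any of 13 of the 16 libraries was left out. Atic had an average fasting effect of -0.20 with an adjusted p of 0.0854 in edgeR, and it was called lower without ADF replicate 2 (adjusted p 0.0272 in edgeR). For Cad the fasting effect with the drug minus that without it was -0.41 on the log2 scale (SE 0.177). Its adjusted p was 0.192 in edgeR, so no difference between the fasting effects was established. No member was called in this test of the difference, where 3.1% of all genes were, 2.18% higher and 0.918% lower. An unadjusted p under 0.05 was found for 1 of 10, a share not counted over all genes. DESeq2 and limma-voom also called 0 members.

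The combined treatment was accompanied by a higher level of Ppat. Ppat had 39.9, 45.1, 44.0 and 45.8 CPM in the ADF+ENZ tumours, against 32.2, 32.9, 30.2 and 33.5 CPM in the Vehicle tumours, and every ADF+ENZ tumour lay above every Vehicle tumour. The log2 fold change was 0.44 (SE 0.0985, 95% interval 0.24 to 0.65), or 1.36-fold, with an adjusted p of 0.0073 in edgeR. In this comparison 1 of 10 members was called higher and 0 lower, where 12.5% of all genes tested were called, 5.97% higher and 6.53% lower. The call held in each of the 8 other settings and with each of the 16 libraries left out. Of the members, Ppat in this comparison had the smallest adjusted p among the 5 pairwise comparisons.

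Cad in ADF+ENZ had 115, 162, 133 and 144 CPM, against 126, 96.1, 104 and 108 CPM in Vehicle, with 1 ADF+ENZ tumour inside the Vehicle range. Its log2 fold change of 0.35 (SE 0.125) gave an adjusted p of 0.0706 in edgeR. The call was made without ADF replicate 1 (adjusted p 0.0389 in edgeR) or ADF+ENZ replicate 1 (0.0414). Atic had 96.4, 100.3, 84.6 and 102 CPM in ADF+ENZ, against 102, 117, 111 and 110 CPM in Vehicle, which did not overlap. Its log2 fold change of -0.20 had an adjusted p of 0.173 in edgeR. Gart had 48.3 to 52.4 CPM in ADF+ENZ, against 41.4 to 48.2 CPM in Vehicle, also without overlap, at an adjusted p of 0.142 in edgeR. In all, 3 of the 10 genes had groups that did not overlap, against 17.3% of all genes tested. An unadjusted p under 0.05 in edgeR was found for 5 of the 10, a share not counted over all genes. The members' median log2 fold change was 0.07, against 0.00 over all genes.

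**Figure D2:**
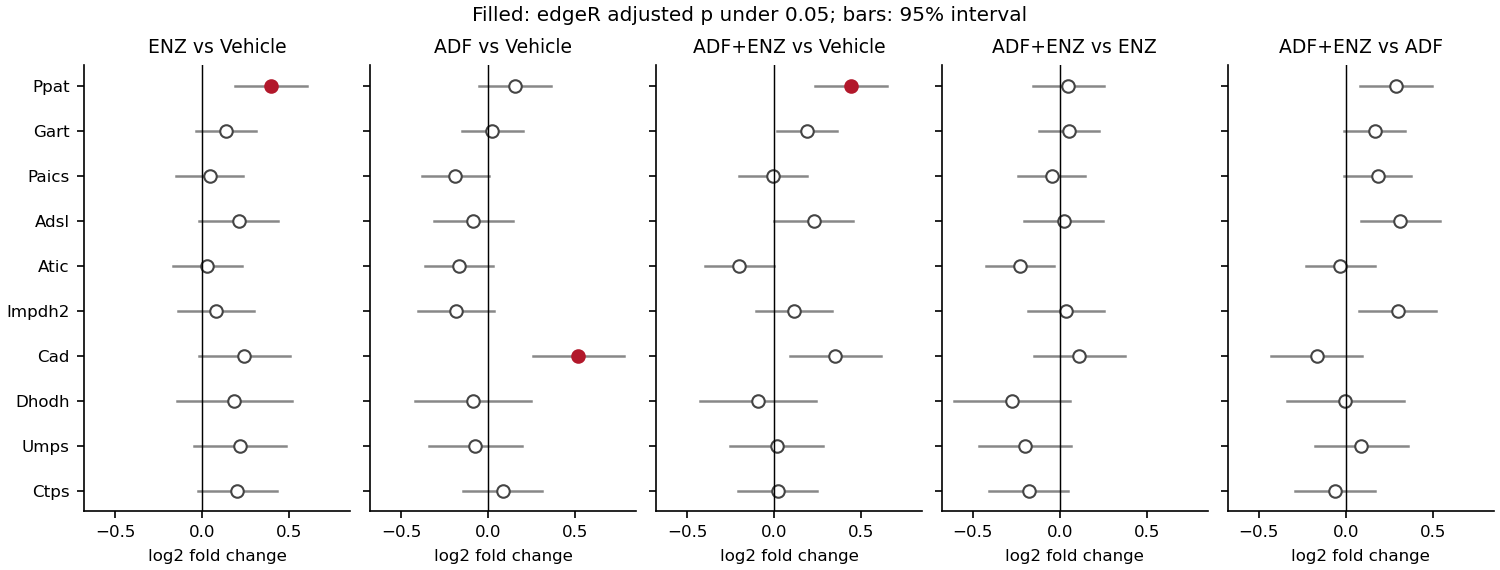
Log2 fold change (horizontal axis) of each of the 10 genes (rows) in the 5 pairwise comparisons, each named with its numerator group in front; bars are 95% intervals from edgeR and filled points have an adjusted p under 0.05. Ppat is filled in ENZ vs Vehicle and ADF+ENZ vs Vehicle, Cad is filled in ADF vs Vehicle, and no point is filled in the comparisons of ADF+ENZ with ENZ or ADF.

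Adding fasting to the drug gave no call among the 10 genes. In ADF+ENZ against ENZ edgeR called 0 members, where 1.09% of all genes were called, 0.813% higher and 0.274% lower. DESeq2 and limma-voom also called 0. An unadjusted p under 0.05 in edgeR was found for 1 member, a share not counted over all genes. That gene was Atic, with 96.4, 100.3, 84.6 and 102 CPM in ADF+ENZ, against 109.5, 108.9, 128 and 104 CPM in ENZ. The 2 groups of Atic did not overlap, and the log2 fold change was -0.23 (95% interval -0.43 to -0.03). Dhodh was the other member without overlap, with 6.11 to 7.35 CPM in ADF+ENZ and 7.43 to 9.37 CPM in ENZ, so that 2 of 10 members were without overlap, against 8.67% of all genes tested. For Ppat the values overlapped, and the 95% interval of the log2 fold change was -0.16 to 0.25.

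Adding the drug to fasting gave 3 purine genes at the edge of the threshold. In ADF+ENZ against ADF edgeR called 0 members, where 16.3% of all genes were called, 8.72% higher and 7.54% lower. An unadjusted p under 0.05 was found for 3 members, a share not counted over all genes. Ppat had 39.9, 45.1, 44.0 and 45.8 CPM in ADF+ENZ, against 38.9, 34.9, 36.2 and 33.3 CPM in ADF, with no overlap and an adjusted p of 0.0522 in edgeR. Impdh2 had 80.5, 79.2, 97.2 and 82.7 CPM in ADF+ENZ, against 76.5, 71.5, 65.9 and 62.0 CPM in ADF, with no overlap and an adjusted p of 0.0573 in edgeR. Adsl had 70.7, 52.4, 73.3 and 58.8 CPM in ADF+ENZ, against 55.3, 58.2, 45.8 and 45.3 CPM in ADF, with overlap and an adjusted p of 0.0548 in edgeR. Their log2 fold changes were 0.29 for Ppat, 0.30 for Impdh2 and 0.31 for Adsl. DESeq2 and limma-voom each called these 3 genes, where they called 3680 and 4493 of all 18946 genes tested. With the percentage of reads outside features as a covariate, the log2 fold changes were 0.06 for Ppat, -0.27 for Impdh2 and -0.15 for Adsl. Groups without overlap were 2 of 10, against 20.5% of all genes tested.

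Averaged over both feeding states, enzalutamide was accompanied by higher Ppat and higher Adsl. The log2 fold change was 0.34 (SE 0.0696, adjusted p 0.0036) for Ppat and 0.26 (SE 0.0769, adjusted p 0.0265) for Adsl in edgeR. These 2 calls of 10 members, both higher, stand beside 17.3% of all genes called, 8.95% higher and 8.36% lower. The Ppat call held with each library left out. The Adsl call was lost without any of 6 libraries, which were Vehicle replicate 1, ENZ replicate 3, ADF replicates 3 and 4, and ADF+ENZ replicates 1 and 3, with adjusted p between 0.0551 and 0.0629. Both calls were lost with the covariate for reads outside features, where the log2 fold changes were 0.22 for Ppat and 0.03 for Adsl. In the same average, 4 of the 20 proliferation markers were called higher and 0 lower, and their part in the result was not tested.

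Ppat and Paics are read in opposite directions from neighbouring starts on chromosome 5 and act in the same route. The ratio of their counts within a library was examined after the values were seen. In GRCm38, Ppat spans chr5:76913249-76951578 on the minus strand and Paics spans chr5:76951307-76967509 on the plus strand, and their exons share 272 bases, which are 6.15% of the exon length of Ppat and 8.67% of that of Paics. The sources used here do not say whether counting used strand, and without strand the reads of the shared stretch cannot be told apart. A ratio of 2 counts in a library does not depend on the scaling between libraries. The ratio of Ppat to Paics counts was 0.205, 0.189, 0.209 and 0.214 in ADF+ENZ, 0.181, 0.196, 0.201 and 0.182 in ENZ, 0.190, 0.196, 0.181 and 0.192 in ADF, and 0.1502, 0.147, 0.142 and 0.158 in Vehicle. Each of the 12 treated tumours had more Ppat per Paics than each of the 4 Vehicle tumours.

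On the log2 scale the ratio of Ppat to Paics was -2.29 ± 0.0796 in ADF+ENZ, -2.40 ± 0.0785 in ENZ, -2.40 ± 0.0491 in ADF and -2.74 ± 0.0635 in Vehicle (SD, n = 4 each). The differences from Vehicle were 0.45 for ADF+ENZ, 0.35 for ENZ and 0.35 for ADF, each with an exact two-sided permutation p of 0.0286, the smallest that 70 assignments allow. This ratio and 2 others were chosen after the values were seen, so these p-values only describe the separation. Ratios of other member pairs were not computed, and the adjustment does not cover that choice. Among the 15 tests of the 3 ratios, 5 reached that p, and it was 0.0857 after Benjamini-Hochberg adjustment, so none passed. With each library left out in turn, the difference from Vehicle stayed between 0.43 and 0.49 for ADF+ENZ, between 0.32 and 0.37 for ENZ, and between 0.32 and 0.37 for ADF. In ADF the higher ratio went with Ppat at 35.9 ± 2.37 CPM and Paics at 189 ± 15.4 CPM, against Ppat at 32.2 ± 1.45 CPM and Paics at 216 ± 5.50 CPM in Vehicle (SD, n = 4 each).

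The other 2 ratios separated fewer groups. Ppat to Atic, an early enzyme of the route against a late one, had a log2 ratio of -1.13 ± 0.139 in ADF+ENZ, against -1.78 ± 0.0963 in Vehicle, a difference of 0.64 with an exact permutation p of 0.0286 (SD, n = 4 each). Against ADF, with -1.44 ± 0.210, the difference was 0.31 at the same exact permutation p. Cad to Umps, the start of the pyrimidine route against its end, had a log2 ratio of 2.498 ± 0.458 in ADF, against 1.899 ± 0.291 in Vehicle, with overlap and an exact permutation p of 0.0857 (SD, n = 4 each).

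**Figure D3:**
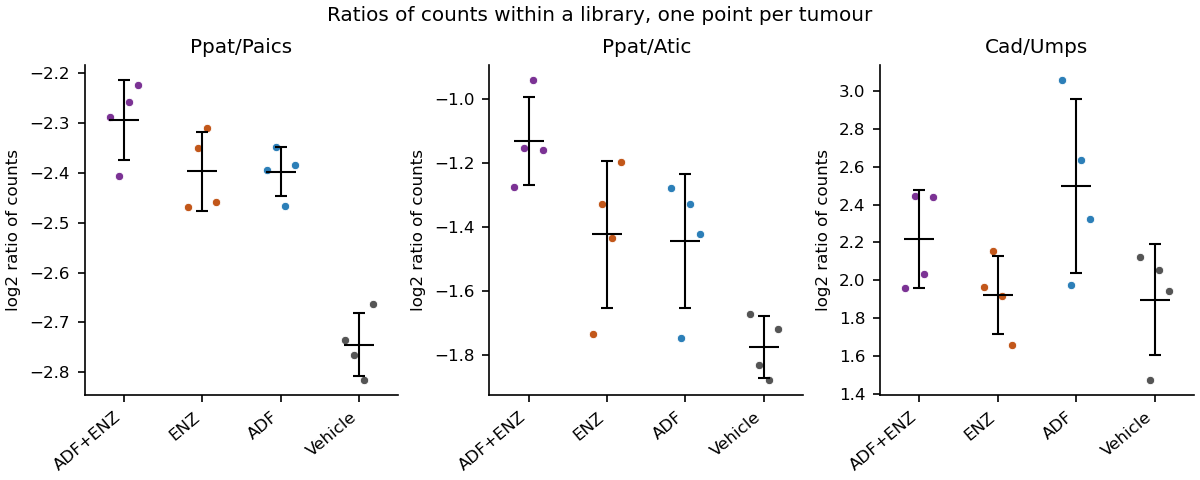
Log2 ratio of 2 genes' counts within a library (vertical axis, not from 0) for each tumour (points) of the ADF+ENZ, ENZ, ADF and Vehicle groups; horizontal bars are means and error bars are SD over 4 tumours. For Ppat to Paics the 12 treated tumours lie above the 4 Vehicle tumours, whose mean is -2.74.

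Most of the 10 genes went up and down together over the 16 libraries, group differences included, and Cad, Atic and Dhodh did so least. Pearson's r of a gene's log2 CPM with the mean of the other 9 over the 16 libraries was 0.75 for Gart, 0.73 for Ppat, 0.70 for Impdh2, 0.30 for Dhodh, 0.29 for Atic and -0.04 for Cad. Between Ppat and Paics r was 0.55 over all libraries and 0.87 once each group's mean was removed. Dhodh and Umps, the last enzymes before and at UMP, had an r of 0.71 over all libraries and 0.62 with group means removed. These values describe the libraries, which share depth and scaling, and carry no test. Outside the list, genes among those most like the mean of the 10 over the 16 libraries were Ran (r 0.93), a GTPase of nuclear transport, Rpa2 (0.93), a subunit of the single-strand DNA binding complex, Usp1 (0.900) and Pa2g4 (0.900). The lowest r were those of 9930024M15Rik (-0.96), Gm37728 (-0.90), Porcn (-0.90), Pcmtd2 (-0.89) and Nrbp2 (-0.89).

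Genes around the route were counted in 7 lists. Of all genes tested, 12.5% were called in ADF+ENZ, 5.43% in ENZ and 9.01% in ADF, each against Vehicle. The share was 16.3% in ADF+ENZ against ADF and 1.09% in ADF+ENZ against ENZ. In the fit with the covariate for reads outside features, 0 of all 18946 genes tested were called in ADF+ENZ against ADF, and 6 were called in ADF against Vehicle, none of them among the calls of these lists. Every list call given here for those 2 comparisons was therefore lost in that fit. Prps2, one of the synthetases that make PRPP, had 45.8 ± 7.59 CPM in ADF+ENZ, 56.1 ± 3.10 in ENZ, 68.7 ± 5.05 in ADF and 101 ± 15.8 in Vehicle (SD, n = 4 each). Each treated group lay below Vehicle without overlap, and ADF+ENZ (38.1 to 54.3 CPM) lay below ADF (65.9 to 76.3 CPM). Against Vehicle the log2 fold change was -1.14 in ADF+ENZ (SE 0.118, adjusted p 1.6e-05), -0.85 in ENZ (SE 0.117, adjusted p 2.6e-04) and -0.56 in ADF (SE 0.116, adjusted p 0.0072) in edgeR. The calls held with each library left out, and with the covariate for reads outside features the adjusted p was 0.249 in edgeR for ADF against Vehicle. Prps1, its isozyme, had 20.2 ± 3.09 CPM in ADF+ENZ, 19.9 ± 1.84 in ENZ, 16.5 ± 2.88 in ADF and 20.0 ± 2.50 in Vehicle and was not called in any of these comparisons. Per kilobase, Prps2 made up 53.8% ± 2.01 of the pair in ADF+ENZ, 59.2% ± 2.71 in ENZ, 68.2% ± 4.62 in ADF and 72.1% ± 2.64 in Vehicle (SD, n = 4 each).

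The 11 genes for PRPP and ribose supply included no gene called higher in any pairwise comparison. In ADF+ENZ against Vehicle, 4 of 11 were called lower, against 6.53% of all genes tested, with a list median of -0.04. They were Prps2, Taldo1 (log2 fold change -0.48), the transaldolase of the pentose phosphate route, Rpe (-0.42), an epimerase of that route, and Rpia (-0.43), which forms ribose 5-phosphate. In ADF against Vehicle 2 of 11 fell, Prps2 and Taldo1 (-0.34), and in ENZ against Vehicle 1 fell, Prps2. Of all genes tested, 4.96% were called lower in ADF and 3.62% in ENZ. Taldo1 had 63.0 ± 3.27 CPM in ADF+ENZ, 88.3 ± 4.27 in ENZ, 69.6 ± 8.23 in ADF and 87.9 ± 3.30 in Vehicle (SD, n = 4 each), and the 2 fasted groups lay below the 2 fed groups. Taldo1 was the only gene of the list called in ADF+ENZ against ENZ (-0.49), and Prps2 the only one in ADF+ENZ against ADF (-0.58). The Taldo1 call in ADF was lost without any of 2 libraries, the Rpe call without any of 6 and the Rpia call without any of 13, and the Rpe and Rpia calls were also lost with the covariate or with only the 2 groups compared.

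The shares of Impdh2 and Ctps within their isozyme pairs overlapped between each treated group and Vehicle. Per kilobase, Impdh2 made up 58.9% ± 1.78 of the sum of Impdh2 and Impdh1 in ADF+ENZ, 60.4% ± 1.59 in ENZ, 55.3% ± 2.23 in ADF and 58.4% ± 4.53 in Vehicle (SD, n = 4 each). Ctps made up 53.3% ± 1.43 of the sum with Ctps2 in ADF+ENZ, 58.4% ± 4.97 in ENZ, 57.0% ± 2.57 in ADF and 53.2% ± 6.84 in Vehicle (SD, n = 4 each). Of the 6 remaining de novo enzymes and isozymes, 1 rose and 1 fell in ADF+ENZ against Vehicle, and none was called in the other pairwise comparisons. Pfas, which acts before Paics in the purine route, rose with a log2 fold change of 0.40 (SE 0.110, adjusted p 0.0231 in edgeR). Adss, which starts the branch from IMP to AMP, fell by 0.35 on the log2 scale (SE 0.102, adjusted p 0.0298 in edgeR). Each call was lost without any of 4 libraries and with the covariate.

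Of the folate and amino acid supply genes, 0 were called higher against Vehicle in any treated group, and most were not called. Mthfd2, the mitochondrial folate enzyme that supplies one-carbon units, had 20.0 to 28.2 CPM in ADF+ENZ, 22.4 to 34.0 in ENZ, 19.5 to 23.7 in ADF and 37.2 to 40.99 in Vehicle. It fell in each treated group, with log2 fold changes of -0.58 in ADF+ENZ, -0.49 in ENZ and -0.83 in ADF. With the covariate, the ADF value was -0.42 for Mthfd2 (adjusted p 0.414 in edgeR). Got1, the cytosolic aminotransferase that makes aspartate, a nitrogen donor of both rings, had 39.6 to 51.1 CPM in ADF+ENZ, 34.4 to 41.9 in ENZ, 35.6 to 39.3 in ADF and 49.0 to 60.3 in Vehicle. It fell in ENZ (log2 fold change -0.51, adjusted p 0.0039 in edgeR) and in ADF (-0.57, adjusted p 0.0019 in edgeR; 0.465 with the covariate). Of the 12 genes of this list, 0 rose and 2 fell in ADF+ENZ (Mthfd2 and Asns, an asparagine synthetase, -0.87), 0 rose and 3 fell in ENZ (Got1, Mthfd2 and Glul, glutamine synthetase, -0.35), and 0 rose and 2 fell in ADF (Mthfd2 and Got1), each against Vehicle. In the same order, 6.53%, 3.62% and 4.96% of all genes tested were called lower. The Asns and Glul calls were each lost without any of 11 libraries, and the Mthfd2 call in ENZ without any of 5. In ADF+ENZ against ADF 2 of 12 rose, Got2 (0.39), the mitochondrial partner of Got1, and Got1 (0.33), and in ADF+ENZ against ENZ Glul rose (0.50). The Got1 call against ADF and the Glul call were each lost without any of 5 libraries and with the covariate, where the Got1 value was 0.03.

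Of the deoxynucleotide genes, Rrm2, the small subunit of ribonucleotide reductase, had 55.2 to 68.9 CPM in ADF+ENZ, 70.6 to 87.8 in ENZ, 49.6 to 98.0 in ADF and 91.5 to 123 in Vehicle. It fell in ADF+ENZ (log2 fold change -0.84, adjusted p 0.0045 in edgeR) and in ADF (-0.61, adjusted p 0.0308 in edgeR, lost without any of 5 libraries), each against Vehicle. The Rrm2 values in ENZ also lay below those of Vehicle without overlap, as groups did in either direction for 12% of all genes tested. The edgeR result of Rrm2 in ENZ is not given here. Dctpp1, a pyrophosphatase that clears modified deoxycytidine nucleotides, had 12.5 to 17.0 CPM in ADF+ENZ, 14.2 to 19.8 in ENZ, 7.75 to 10.7 in ADF and 7.46 to 11.7 in Vehicle, so the drug-treated groups lay above both others. Its log2 fold change was 0.65 in ADF+ENZ and 0.88 in ENZ, each against Vehicle, and 0.73 in ADF+ENZ against ADF. Dctd, which deaminates deoxycytidine monophosphate towards thymidylate, had 6.82 to 10.8 CPM in ENZ, against 3.69 to 4.97 CPM in Vehicle, and rose in this comparison (adjusted p 0.0035 in edgeR).

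Of the 14 genes of the deoxynucleotide list, 3 rose and 3 fell in ADF+ENZ, 3 rose and 2 fell in ENZ, and 0 rose and 1 fell in ADF, each against Vehicle, where 12.5%, 5.43% and 9.01% of all genes tested were called. The list medians were 0.18 in ADF+ENZ, 0.19 in ENZ and -0.11 in ADF, against medians of 0.00, 0.01 and 0.01 over all genes. Samhd1, which breaks down deoxynucleotides, fell in ADF+ENZ (-0.45), and Rrm2b, the alternative reductase subunit induced by p53, fell in ENZ (-0.38), a call lost without any of 3 libraries. Tyms, thymidylate synthase, rose in ENZ (0.51), a call lost without any of 7 libraries. Nme1, a nucleoside diphosphate kinase, rose in ADF+ENZ against Vehicle (0.68), but it has a close paralogue, Nme2, next to it, and how reads were divided between them is uncertain. In ADF+ENZ against ADF, where 8.72% of all genes tested were called higher and 7.54% lower, 4 of 14 rose and 1 fell. The list median was 0.31 against -0.02 over all genes. Cmpk1 (0.39), which phosphorylates UMP and CMP, was among those that rose. None of the 14 was called in ADF+ENZ against ENZ. Averaged over both feeding states, 8 of the 14 rose and 2 fell with enzalutamide, at a list median of 0.28 on the log2 scale. Of all genes tested, 8.95% were called higher and 8.36% lower in that average. With the covariate for reads outside features, that average left 27 genes called among all tested.

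**Figure D4:**
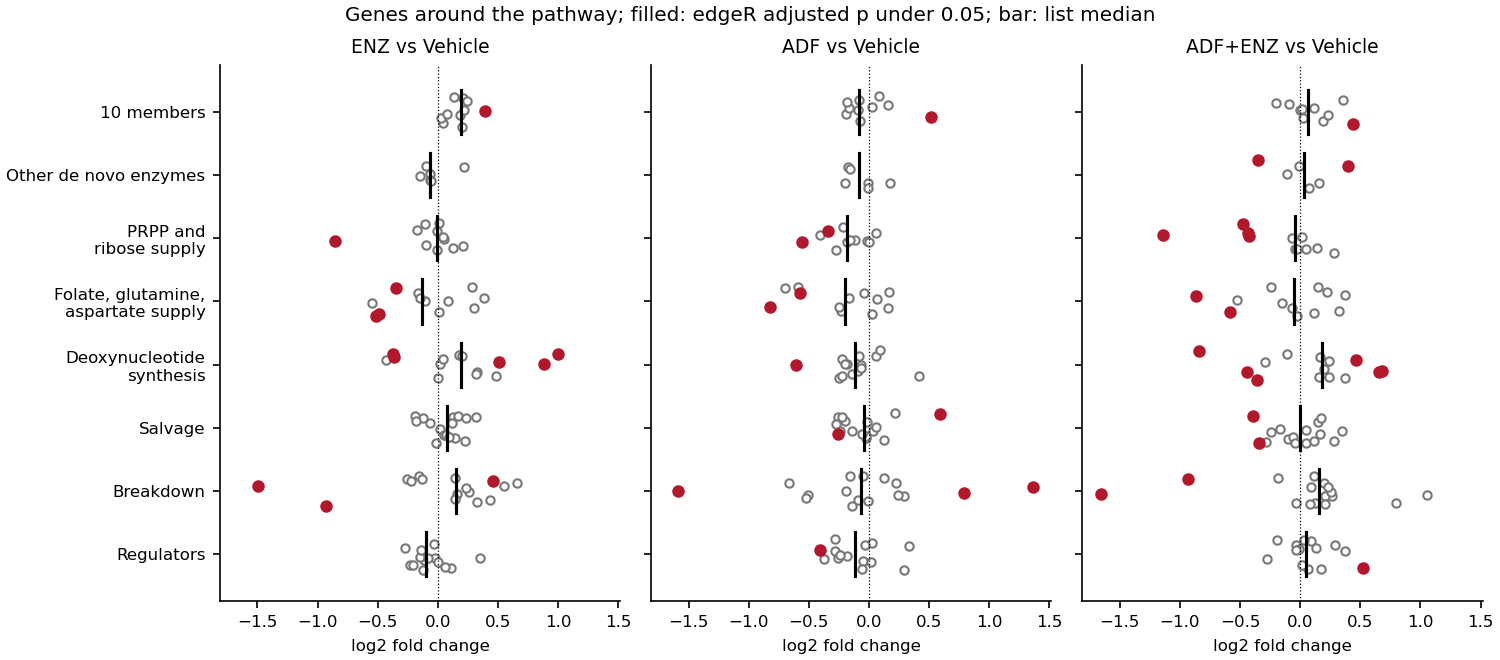
Log2 fold change (horizontal axis) of the 10 members and of 7 lists of neighbouring genes (rows) in ENZ, ADF and ADF+ENZ, each against Vehicle; each point is a gene, filled where the edgeR adjusted p is under 0.05, and black bars are list medians. The largest falls are those of Nt5e in the breakdown list, between -1.50 and -1.66, while the members lie between -0.20 and 0.52.

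Salvage genes, which reuse bases and nucleosides, showed few calls. Of 16, 0 rose and 2 fell in ADF+ENZ, 0 were called in ENZ, and 1 rose and 1 fell in ADF, each against Vehicle. Of all genes tested, 12.5%, 5.43% and 9.01% were called in these comparisons. Hprt, which returns hypoxanthine and guanine to nucleotides, had 55.4 to 65.4 CPM in ADF+ENZ, 69.8 to 76.4 in ENZ, 62.9 to 67.6 in ADF and 70.3 to 87.6 in Vehicle. Its fall was -0.34 on the log2 scale in ADF+ENZ (adjusted p 0.0099 in edgeR) and -0.26 in ADF (adjusted p 0.0483 in edgeR, lost without any of 11 libraries). Uprt, a homologue of uracil phosphoribosyltransferases, fell in ADF+ENZ against Vehicle (-0.396), a call lost without any of 5 libraries. Slc29a2, an equilibrative nucleoside transporter, rose in ADF (0.59), a call lost without any of 5 libraries. Against ADF, 2 of the 16 rose in ADF+ENZ (Uck2, a uridine and cytidine kinase, 0.59, and Aprt, which salvages adenine, 0.31) and 1 fell (Uckl1, -0.38). These calls were lost without any of 6 libraries for Uck2, 5 for Aprt and 4 for Uckl1, and with the covariate the Uck2 value was -0.054.

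Breakdown genes held the largest changes. Nt5e, the surface enzyme CD73 that turns extracellular AMP into adenosine, had 20.8 to 54.9 CPM in ADF+ENZ, 32.4 to 47.2 in ENZ, 28.9 to 46.7 in ADF and 72.0 to 143 in Vehicle. Every treated tumour lay below every Vehicle tumour, with log2 fold changes of -1.66 in ADF+ENZ (SE 0.296), -1.50 in ENZ (SE 0.294) and -1.59 in ADF (SE 0.296) and adjusted p of 0.0037, 0.0108 and 0.0070 in edgeR. These calls held with each library left out, and the ADF call was lost with the covariate for reads outside features (adjusted p 0.288 in edgeR). Ampd3, an AMP deaminase, fell by 0.94 on the log2 scale in ADF+ENZ and by 0.93 in ENZ, each against Vehicle. Of the 19 genes of this list 16 were tested, and 0 rose and 2 fell in ADF+ENZ, 1 rose and 2 fell in ENZ, and 2 rose and 1 fell in ADF. Shares of all genes called were 12.5%, 5.43% and 9.01% in that order. The gene that rose in ENZ was Itpa (0.46), which clears inosine triphosphate, a call lost without any of 2 libraries. In ADF the 2 that rose were Upp2 (0.79), a uridine phosphorylase, and Ampd1, the muscle AMP deaminase, at 1.73 to 5.76 CPM in ADF, against 0.857 to 1.78 CPM in Vehicle, with overlap. The Upp2 call was lost without any of 6 libraries (adjusted p 0.750 in edgeR with the covariate) and the Ampd1 call without any of 4 (0.464 with the covariate). The summed level of 10 skeletal muscle markers was 3.44 to 13.3 CPM in ADF and 3.60 to 29.4 CPM in Vehicle, and its part in the Ampd1 value was not tested. Against ADF, 2 of the 16 rose in ADF+ENZ, Dpys (1.32), a dihydropyrimidinase, and Nt5c (0.35), a nucleotidase. The Dpys call was lost without any of 3 libraries and the Nt5c call without any of 8.

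**Figure D5:**
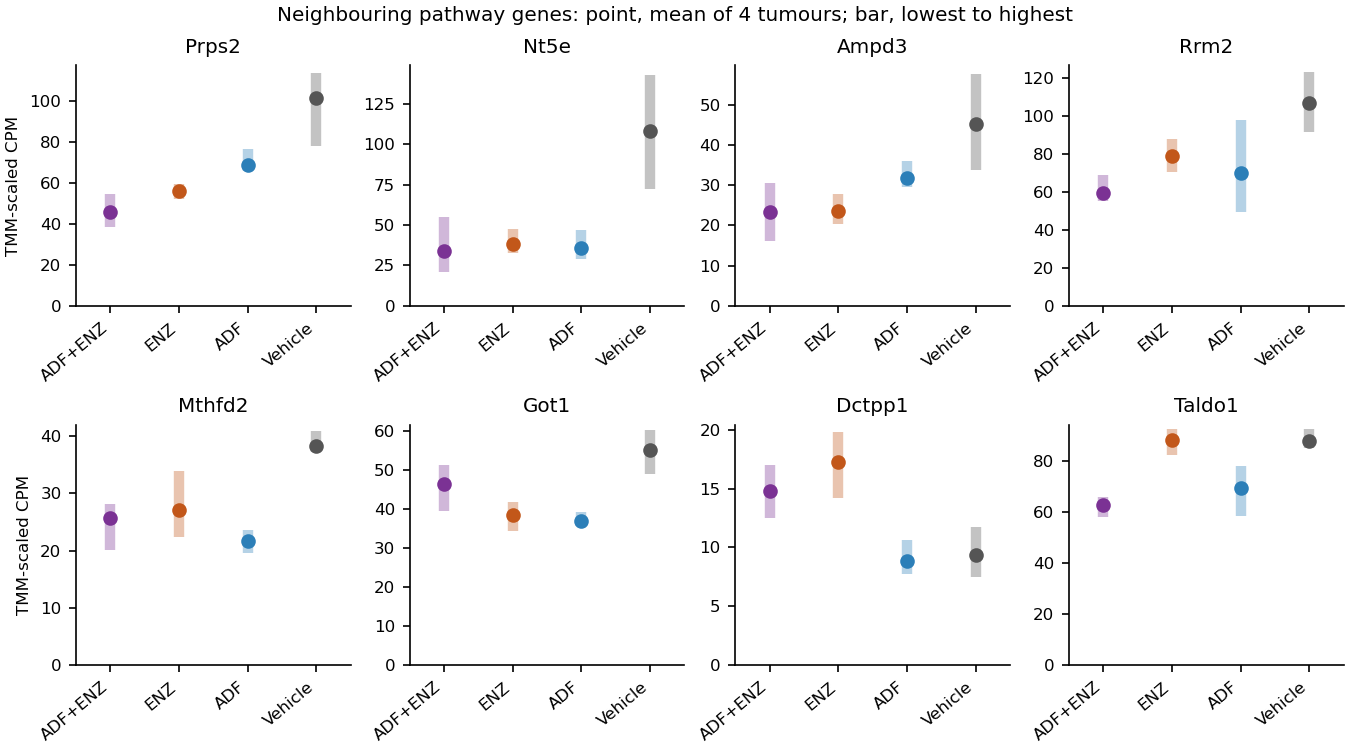
TMM-scaled CPM (vertical axis, from 0) of 8 neighbouring genes in the ADF+ENZ, ENZ, ADF and Vehicle groups; points are means of 4 tumours and bars run from the lowest to the highest tumour. For Prps2, Nt5e and Mthfd2 the bars of all 3 treated groups lie below the Vehicle bar, and for Dctpp1 the bars of both drug-treated groups lie above the Vehicle bar.

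Of 14 genes known as regulators of these routes, 1 rose in ADF+ENZ, 0 were called in ENZ and 1 fell in ADF, each against Vehicle. Of all genes tested, 12.5%, 5.43% and 9.01% were called in these comparisons. In ADF+ENZ against ADF, 8.72% of all genes tested were called higher and 7.54% lower. Mouse Myc had 103 to 148 CPM in ADF+ENZ, 79.6 to 119 in ENZ, 96.8 to 153 in ADF and 87.9 to 105 in Vehicle, with overlap between each treated group and Vehicle and an adjusted p of 0.106 in edgeR for ADF+ENZ against Vehicle. The table names mouse genes, so transcripts of a human transgene were not measured apart. Mtor, the kinase that links nutrients to growth, rose in ADF+ENZ against Vehicle (log2 fold change 0.52, adjusted p 0.0187 in edgeR), a call lost without ADF+ENZ replicate 3 (adjusted p 0.0773 in edgeR) or with the covariate (0.0608). Atf4, a transcription factor of the amino acid response, rose in ADF+ENZ against ADF (0.55, adjusted p 0.0111 in edgeR), where 2 of the 14 rose and 0 fell, but its log2 fold change was -0.00017 with the covariate. Mlx, a partner of glucose-sensing factors, rose in the same comparison (0.42) and fell in ADF against Vehicle (-0.41), where it was the only gene of the list called. These Mlx calls were lost without any of 3 libraries in ADF+ENZ against ADF and without any of 5 in ADF against Vehicle, and both were lost with the covariate.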

How the data were processed

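RNA-seq counts of 16 tumours were used. The authors deposited unnormalised counts of reads per gene, made with Trim Galore, HISAT2 and featureCounts, per the submitters' processing notes, which also name DESeq2 and the builds mm39 and GRCh38 without versions or roles. Its 5 entries for unassigned reads carry names that htseq-count writes; they were kept out of tests and library sizes. Symbols were found for 52081 of 55414 IDs in GENCODE M21 (GRCm38), an earlier build than mm39, which also gave exon lengths and coordinates. IDs without a symbol held 3.51% of counts.

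The test was edgeR's robust quasi-likelihood test (edgeR 4.0.16, R 4.3.3), in one fit of 4 group means over 16 libraries, with TMM and filterByExpr (minimum count 10, total 15). Each of 8 contrasts was adjusted by Benjamini-Hochberg over 18946 genes, with a threshold of 0.05. The 3 comparisons against Vehicle use the same 4 control libraries. For library measures and ratios, exact permutation tests (two-sided) were run. Replicates of a group differed by more than counting error (chi-square per degree of freedom 5.79 to 38.6). Precision follows from the members' counts given in the results.

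Alternatives were DESeq2 1.42.0, its size factors in edgeR, limma-voom (limma 3.58.1) with quality weights, no filter, a stricter filter, protein-coding genes alone, the percentage of reads outside features as a covariate, only the 2 groups compared, and each library left out. On simulated data, the fit of ENZ against Vehicle called 41.8% of the genes changed 1.5-fold and 62.7% of those changed 2-fold, and that of ADF against Vehicle called 34.3% and 68.7% of them. Members and lists were chosen with earlier results of these data known. Up to 4 called genes per list and comparison are named, by smallest adjusted p. Plots were made in Python 3.11.15 with matplotlib 3.10.9. Some genes are not reported here.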

Additional observations from a re-analysis of the deposited data

Results flagged for a closer look

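For 3 genes around the route the fasting effect differed between tumours with and without enzalutamide, by the test of the difference itself in edgeR. These were 2 of 12 folate and amino acid supply genes and 1 of 14 deoxynucleotide genes. The lists of remaining de novo enzymes (6 tested), PRPP and ribose supply (11), salvage (16), breakdown (16) and regulators (14) had 0 calls. Of all genes tested, 3.1% were called, 2.18% higher and 0.918% lower. Whether the lists differ from all genes in this share was not tested. The fasting effect with the drug minus that without it was 0.85 on the log2 scale for Got1 (SE 0.137, adjusted p 0.0063 in edgeR), 0.74 for Mthfd2 (SE 0.173, adjusted p 0.0299) and -1.04 for Dctd (SE 0.264, adjusted p 0.0391). Got1 had 46.5 ± 5.31 CPM in ADF+ENZ, 38.5 ± 3.30 in ENZ, 36.9 ± 1.64 in ADF and 55.0 ± 5.90 in Vehicle (SD, n = 4 each). The Got1 call held with each library left out, whereas the Mthfd2 call was lost without any of 8 libraries and the Dctd call without any of 12. With the covariate for reads outside features none of the 3 was called. None of the 10 members was called in this test. Dixon's test for a tumour far from the others (critical value 0.829 for 4 values) flagged 0 of 40 groups of member values. With 4 values this test can flag only an extreme gap, so it cannot show that no tumour lay apart. Cad in ADF, with 195 CPM in replicate 1 and 139 to 149 CPM in the others, was not flagged.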

How the results depend on the processing

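The number of members called moved with the setting. ENZ against Vehicle gave 1, and 0 with only the 2 groups; with each library left out it was 0 to 1. ADF against Vehicle gave 1, and 0 with the covariate for reads outside features (0 to 1 with libraries left out). ADF+ENZ against Vehicle gave 1 in each setting and 1 to 2 with libraries left out. ADF+ENZ against ADF gave 0, but 1 with DESeq2 size factors in edgeR or with only the 2 groups. It gave 3 with DESeq2 or limma-voom (0 to 3 with libraries left out). Of all 18946 genes tested, 3117 were called with those size factors, 3680 with DESeq2 and 4493 with limma-voom. With only the 2 groups, 2648 of 17199 were called. ADF+ENZ against ENZ and the difference of fasting effects gave 0 throughout, with 0 to 0 for libraries left out. The average fasting effect gave 1, but 0 with limma-voom, without a filter or with the covariate (0 to 2 with libraries left out). The average enzalutamide effect gave 2, but 4 with limma-voom and 0 with the covariate (1 to 4 with libraries left out). For this average, limma-voom called 4956 of all 18946 genes and the fit with the covariate called 27. The covariate turned the sign of 6 values. In ADF+ENZ against ADF it gave -0.15 for Adsl, -0.27 for Impdh2, -0.088 for Nme1, -0.054 for Uck2 and -0.00017 for Atf4, and for the average enzalutamide effect -0.10 for Impdh2. It differs most between ADF and the other groups and left 6 of all 18946 genes called in ADF against Vehicle, 0 in ADF+ENZ against ADF and 0 in the difference of fasting effects. Of 58 calls of neighbouring genes, 35 were lost with it, 12 with only the 2 groups, and 27 held with every library left out. For Cad to Umps in ENZ against Vehicle the log2 difference was -0.12 to 0.11 with libraries left out. The cause of these changes was not tested. No paired analysis was possible because the labels give each tumour its own number and the groups share none. Depth limits Dhodh most, at 64 to 179 counts per library.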
